A study of Homo sapiens with 4 samples.

Results

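The B3GALT5 locus, the gene that was knocked out in this series, was followed in hg19 over a window of 120 kb on chromosome 21 that spans all starts of B3GALT5 and the antisense gene B3GALT5-AS1. Its members were the cytosines that the deposited tables list there, from 40928380 to 41041414: 106 in any of the 4 libraries, of 2824978 listed in the series, and 43 with at least 5 reads in all 4 libraries, of 907719. The cells were H9, an established line of human embryonic stem cells, whose captured DNA was bisulfite converted and sequenced to read methylation at single cytosines. The WT primed library came from wild-type cells in basal medium and the KO primed library from B3GALT5-/- cells in basal medium, both labelled primed. The WT naive library came from wild-type cells in 5iLAF medium and the KO naive library from B3GALT5-/- cells in 2iLAF medium, both labelled naive. Each group held 1 library, so no difference between groups has a replicate check, and in the naive state genotype and medium cannot be told apart. How the knockout was made, and whether its cells are 1 clone, is not given in the sources used here.

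B3GALT5 encodes a galactosyltransferase of the Golgi. It adds galactose to glycolipid and glycoprotein chains, makes the globo-series antigen SSEA-3 in human pluripotent cells, and builds chains that carry Lewis antigens in epithelia. The gene is known for several alternative starts, of which one lies in the long terminal repeat of an endogenous retrovirus and is used in the colon. Methylation of cytosines in CpG pairs near a start is commonly associated with a silent start, and conversion of human embryonic stem cells from the primed to the naive state is known to lower methylation over most of the genome.

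The sequences around the starts show how unlike they are in CpG content, which limits how many CpG cytosines can be read there. RefSeq (GRCh38.p14) holds 2 windows of 300 bases for B3GALT5, from 250 bases before to 50 after a start on the plus strand, printed here with each CpG in capitals.
B3GALT5 start 1, chr21:39612690-39612989 (GRCh38.p14, plus strand): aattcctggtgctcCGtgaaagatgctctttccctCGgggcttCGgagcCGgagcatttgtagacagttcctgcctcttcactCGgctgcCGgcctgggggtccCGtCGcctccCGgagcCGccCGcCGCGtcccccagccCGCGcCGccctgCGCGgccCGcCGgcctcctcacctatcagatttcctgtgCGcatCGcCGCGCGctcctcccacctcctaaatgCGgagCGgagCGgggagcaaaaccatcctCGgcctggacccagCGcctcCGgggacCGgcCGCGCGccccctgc
B3GALT5 start 2, chr21:39642146-39642445 (GRCh38.p14, plus strand): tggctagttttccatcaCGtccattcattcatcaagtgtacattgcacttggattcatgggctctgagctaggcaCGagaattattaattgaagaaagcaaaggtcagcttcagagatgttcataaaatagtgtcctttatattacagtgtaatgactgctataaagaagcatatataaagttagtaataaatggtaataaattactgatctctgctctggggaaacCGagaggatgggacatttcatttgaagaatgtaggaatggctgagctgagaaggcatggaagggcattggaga
The first window holds 35 CpGs at a GC content of 71%, and 14.1% of the 35116 RefSeq windows of this length hold as many or more. The second holds 3 CpGs at a GC content of 38.7%, a number that 81.8% of the windows reach. The window of B3GALT5-AS1, on the minus strand, holds 43 CpGs and shares 217 bases with the first B3GALT5 window, so both genes start from the same CpG-dense stretch in opposite directions. These coordinates are those of GRCh38.p14 and cannot be set against the hg19 positions below. No shift of either B3GALT5 window along the locus placed at least 3 listed cytosines with all of them on its CpGs, and for B3GALT5-AS1 only 2 shifts did, each with 3 cytosines. The scan could place the second B3GALT5 start only if all its 3 CpGs were listed, and cytosines without a methylated read have no row to place. The starts were not placed on the measured positions, and no level is given for them. No hg19 annotation was used here, so no cytosine below is assigned to an exon, an intron or a start.

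Every row of the tables has 1 or more methylated reads, so a cytosine can be missing for lack of reads or because all its reads were unmethylated, and levels near 0 are raised by this selection. The libraries listed 2018895 to 2340330 cytosines on the autosomes and chromosome X, at a median of 7 to 13 reads. Over the 876973 autosomal cytosines with at least 5 reads in all 4 libraries, the mean level was 80.7% in WT primed and 81.7% in KO primed, and 58.1% in WT naive and 59.3% in KO naive. The lower autosomal level of both naive libraries is the measured difference between the states. Wilson 95% intervals below cover counting error only, since reads without molecular identifiers are not independent molecules.

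The knockout was first looked for as sequence that both KO libraries lack. The locus had 84 listed cytosines in WT primed, 89 in KO primed, 81 in WT naive and 97 in KO naive. Set against the autosomal rows of the same library, these were 4.13, 4.19, 4.14 and 4.30 per 100000. At any depth the libraries thus listed nearly equal shares of their rows at the locus. Over rows with at least 5 reads the shares were less even, at 3.71, 4.95, 4.29 and 4.40 per 100000 in the same order. Of the 44 cytosines with at least 5 reads in both WT libraries, 0 were missing from both KO libraries, against 0.849% over the autosomes. A count of 0 would allow a share of up to 6.82% (3 of 44) if cytosines were independent, which near neighbours are not. Among the 68 cytosines listed in both WT libraries at any depth, 1 was missing from both KO libraries, against 1.37% over the autosomes; it lay at 41002349 on the minus strand, had 3 reads in each WT library, and is named after its values were seen. In the reverse direction 1 of 84 was listed in both KO and no WT library, against 4.0% over the autosomes, and at 5 or more reads 1 of 62, against 2.01%. No measured stretch of the locus was absent from both KO libraries while listed in both WT libraries. A small edit, or one outside the listed stretches, would not be seen this way, so these rows do not check the knockout label.

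The rows were unevenly spread. Of 24 bins of 5 kb, 12 held no listed cytosine in any library and 11 held some in all 4. The longest stretch without a row ran 37.5 kb, from 40934991 to 40972493. In the bin from 41015001 to 41020000 the WT naive library listed 0 cytosines, while WT primed listed 7 and KO primed and KO naive 5 each. That gap was in 1 WT library, not in both libraries of a genotype.

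**Figure D1:**
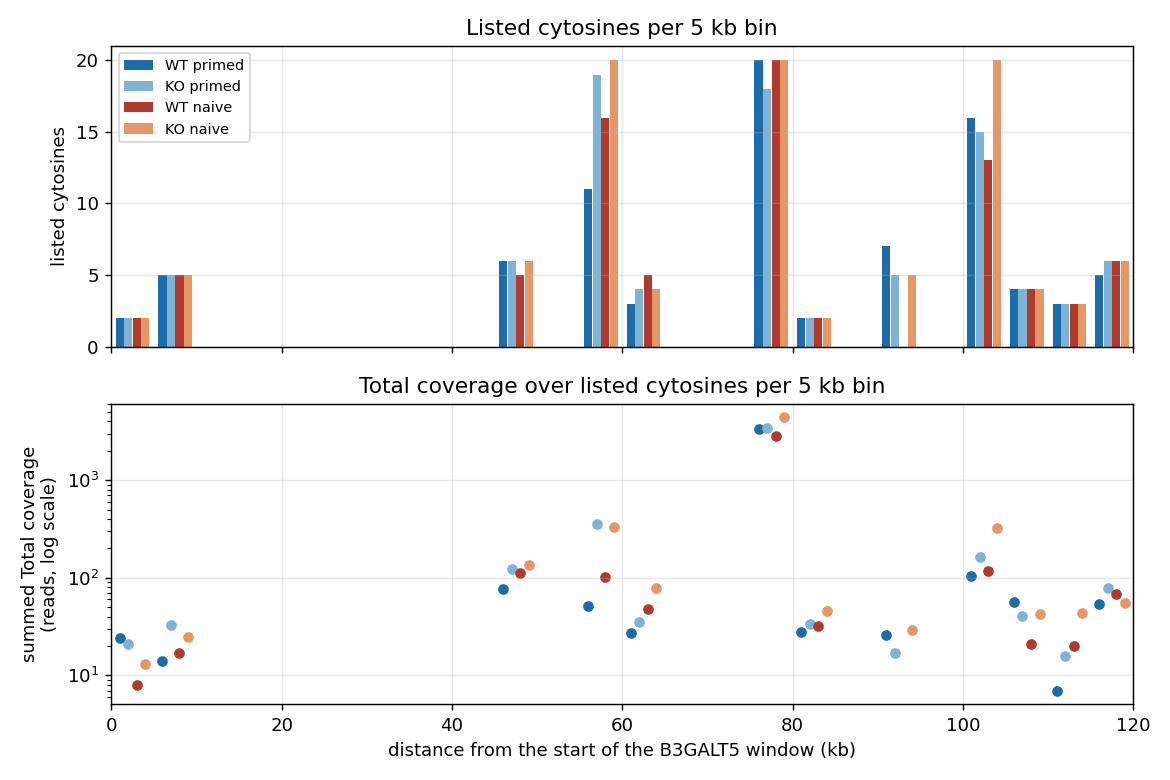
Listed cytosines (upper panel, bars) and summed Total coverage over them (lower panel, points on a log axis) in 5 kb bins, against the distance in kb from the start of the B3GALT5 window, in 4 libraries. Rows fall in 12 of 24 bins, and the bin at 75 kb holds most of the coverage in every library.

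Total coverage, which counts the reads of both strands at a listed position, summed to 3837 in WT primed, 4376 in KO primed, 3346 in WT naive and 5523 in KO naive over the locus. Per 100000 reads of autosomal Total coverage these were 11.3, 11.1, 10.4 and 9.95. One block of 178 bp, from 41001090 to 41001267, held most of it: 9.84, 8.66, 8.34 and 7.80 per 100000, in the same order. The remaining coverage was 1.46 per 100000 in WT primed, against 2.40 in KO primed, 2.05 in WT naive and 2.14 in KO naive. The low value of WT primed came with the bin from 40980001 to 40985000, where its Total coverage was 51, against 359 in KO primed, 103 in WT naive and 330 in KO naive. Because unlisted cytosines add no reads, fewer listed cytosines and fewer reads cannot be told apart in these sums.

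Over the 43 cytosines with at least 5 reads in all libraries, the mean level was 70.5% ± 31.55 in WT primed and 69.8% ± 31.8 in KO primed (SD over cytosines). In the naive libraries it was 50.3% ± 24.4 in WT and 51.2% ± 24.9 in KO. The locus lay below the autosomal mean in every library, and the naive libraries lay below the primed ones in both genotypes. That the locus lay below the autosomes rests on the block of 178 bp named above. Over the 28 cytosines outside it the means were 82.0% in WT primed, 85.8% in KO primed, 60.3% in WT naive and 61.4% in KO naive. These lay above the autosomal mean in every library. At 80% or above stood 22 of the 43 cytosines in WT primed and 23 in KO primed, but 5 in each naive library, or 51.2%, 53.5% and 11.6%. Over the autosomes these shares were 67.2% in WT primed, 69.3% in KO primed, 27.1% in WT naive and 23.6% in KO naive. Fully methylated were 12 in each primed library, 1 in WT naive and 0 in KO naive. For this class no share over the autosomes was computed, so these counts have no background. They also depend on depth, since a cytosine with few reads is more easily read as fully methylated. Over all listed cytosines of the locus, not the 43 alone, the median depth was 7 reads in WT primed, 11 in KO primed, 11 in WT naive and 14 in KO naive. KO primed and WT naive had the same median, with 12 and 1 fully methylated cytosines. How far depth bears on these counts was not tested. At 20% or below stood 5 cytosines in each primed library (11.6%) and 4 in each naive library (9.30%). Over the autosomes the share at 20% or below was 3.89% in WT primed and 3.51% in KO primed, and 11.6% in WT naive and 8.64% in KO naive. Of the 15 blocks that a gap of over 500 bp separates, 11 held at least 1 of the 43 cytosines and 3 held at least 5.

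**Figure D2:**
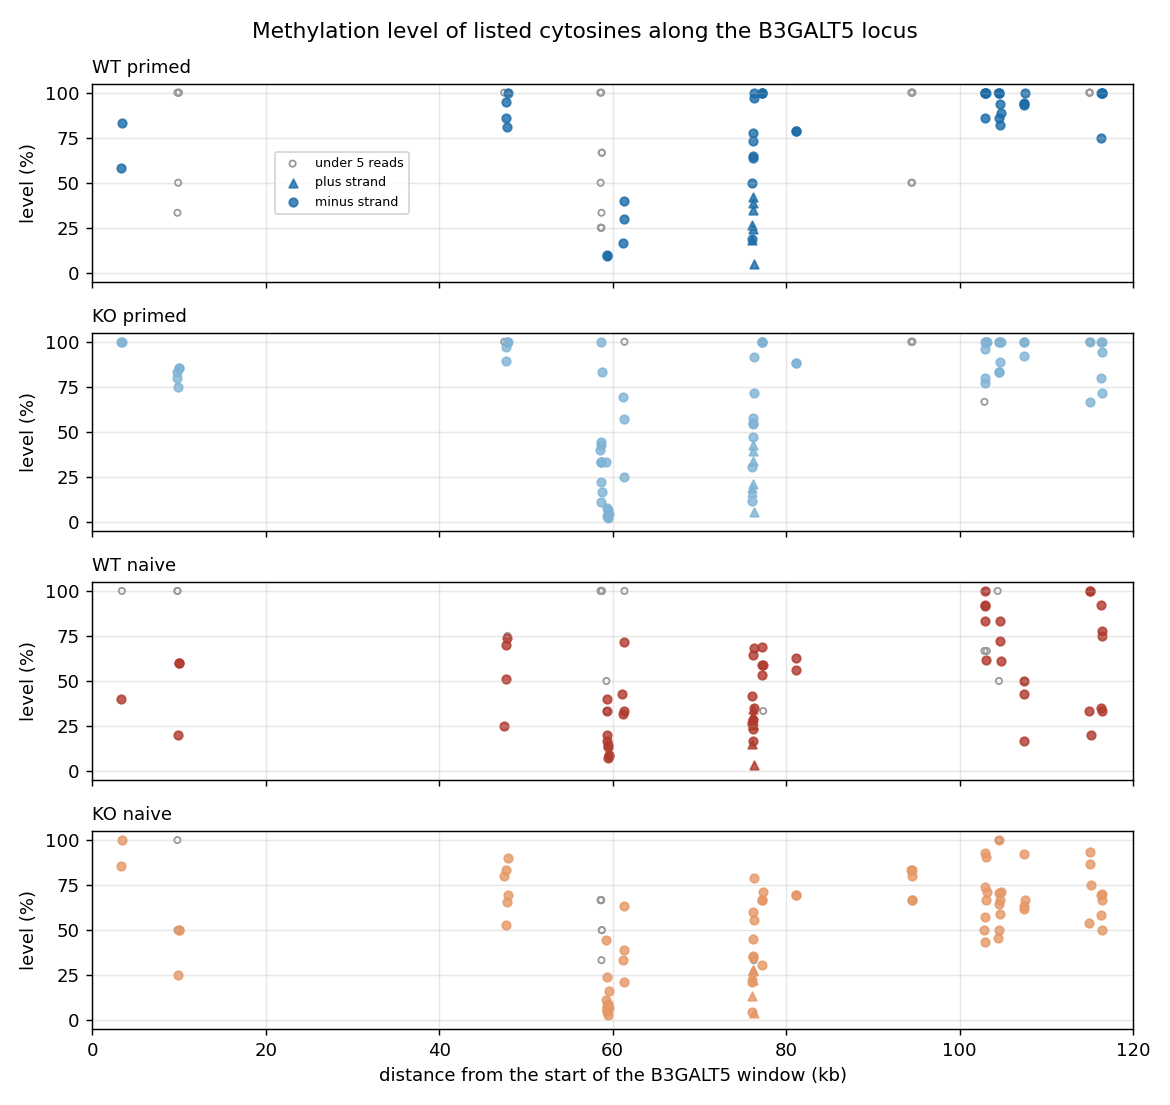
Methylation level in percent of each listed cytosine (y axis) against the distance in kb from the start of the B3GALT5 window (x axis), 1 panel per library; triangles are plus-strand and filled circles minus-strand cytosines with at least 5 reads, and open circles have fewer. The levels are low near 59 kb in every library, mixed at 76 kb, and high in both primed libraries from 103 kb on.

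The lowest stretch of the locus ran from 40984280 to 40984554, with 14 listed cytosines within 275 bp, all on the minus strand. That strand held 87.6 to 92.1% of the listed cytosines of the locus over the libraries, and 82.3 to 83.9% of all listed cytosines. WT primed listed 2 of the 14, KO primed 8, WT naive 11 and KO naive 13. The listed cytosines with at least 5 reads had a mean level of 9.55% ± 0.643 in WT primed (SD over 2 cytosines) and 8.10% ± 10.4 in KO primed (8 cytosines). In WT naive it was 18.02% ± 11.5 (9 cytosines) and in KO naive 11.8% ± 11.2 (13 cytosines). Most of these rows rest on very few methylated reads: 2 of 2 in WT primed, 4 of 8 in KO primed, 7 of 11 in WT naive and 5 of 13 in KO naive had exactly 1. Coverage was 10 to 11 reads in WT primed, 9 to 45 in KO primed, 2 to 15 in WT naive and 9 to 36 in KO naive. Unlisted cytosines with listed neighbours within 25 bp were then filled in at 0 methylated reads, from the coverage of these neighbours. The means were 2.73% in WT primed (7 of the 14 positions), 4.99% in KO primed (13), 16.2% in WT naive (10) and 10.996% in KO naive (14). Unlike the locus as a whole, this stretch was not lower in the naive than in the primed libraries over these unlike sets of cytosines. Only 1 of its cytosines had at least 5 reads in all 4 libraries, at 40984362, with 9.09% (1 of 11 reads) in WT primed, 7.69% (3 of 39) in KO primed, 33.3% (2 of 6) in WT naive and 6.45% (2 of 31) in KO naive. Its Wilson 95% intervals were 1.62 to 37.7%, 2.65 to 20.3%, 9.68 to 70% and 1.79 to 20.7% and overlapped.

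Both flanks of this stretch had intermediate levels. Upstream, from 40983567 to 40983751, KO primed listed 11 cytosines at 5 to 9 reads, with levels from 11.1% to 100% and a median of 33.3%. The other libraries covered these positions with at most 4 reads each, so they could not be compared. Downstream, from 40986124 to 40986355, 3 cytosines were covered in all libraries, with means of 28.9% ± 11.7 in WT primed, 50.5% ± 22.9 in KO primed, 45.4% ± 22.5 in WT naive and 31.3% ± 9.02 in KO naive (SD over cytosines). The largest KO-minus-WT difference of the primed state in the locus lay here: at 40986245, 9 of 13 reads were methylated in KO primed and 2 of 12 in WT primed, 52.6 points apart. It did not pass Fisher's exact test after adjustment over all cytosines (adjusted p = 0.41), and the naive libraries had 6 of 19 (WT) and 10 of 30 (KO) methylated reads there.

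The deepest block, from 41001090 to 41001267, had 15 cytosines with at least 5 reads in all libraries and took 64.3 to 77.4% of the context reads of the locus. Its mean level was 48.98% ± 29.4 in WT primed, 39.9% ± 23.8 in KO primed, 31.4% ± 17.0 in WT naive and 32.3% ± 20.6 in KO naive (SD over cytosines). The depth was on the plus strand, with 119 to 310 reads per cytosine over the libraries, while the minus strand of the same CpGs had 13 to 42. Over 100 reads on average were found at 7 of the 43 cytosines of the locus, or 16.3%, against 1.10% over the autosomes.

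The strands of this block did not have the same level. Over 7 CpGs with at least 10 reads on both strands, the plus strand had a mean of 27.05% ± 13.0 in WT primed, 25.4% ± 13.5 in KO primed, 23.9% ± 10.98 in WT naive and 21.1% ± 9.14 in KO naive. The minus strand of these CpGs had 64.1% ± 25.2, 46.9% ± 19.8, 38.4% ± 20.6 and 40.1% ± 24.5. In every library the minus strand was the higher one on average, and it was higher at 7 of 7 CpGs in WT primed, 6 in KO primed, 4 in WT naive and 6 in KO naive. At least 25 points separated the strands at 5 of 7 CpGs in WT primed and at 2 of 7 in each other library; over the autosomes this held for 23.7%, 21.8%, 31.5% and 21.6% of CpGs, in the order of the libraries above. The last CpG was the most unequal. Its plus-strand cytosine, at 41001236, had 7 of 151 methylated reads in WT primed, 10 of 180 in KO primed, 4 of 127 in WT naive and 8 of 207 in KO naive, so from 3.15% to 5.56%. Its minus-strand cytosine, at 41001237, had 30 of 30, 10 of 14, 13 of 19 and 15 of 19 methylated reads, so from 68.4% to 100%.

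**Figure D3:**
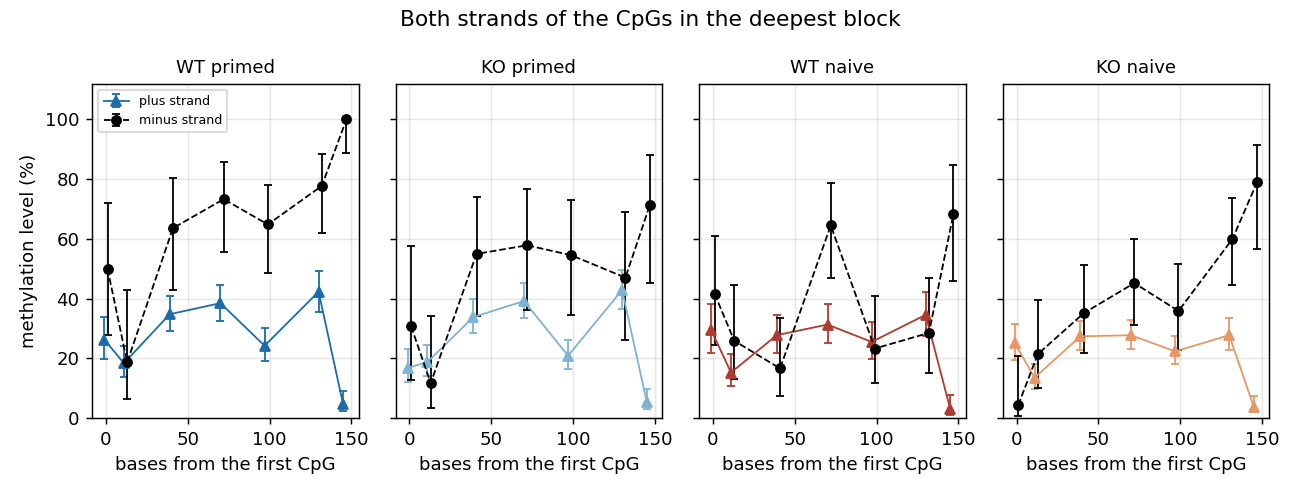
Methylation level in percent (y axis) with Wilson 95% intervals on the plus strand (triangles) and minus strand (circles) of 7 CpGs in the deepest block, against the distance in bases from the first CpG, 1 panel per library. The minus strand lies above the plus strand on average in all 4 libraries, most widely at the last CpG.

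The difference between the states was also unlike on the strands of the 7 CpGs in WT cells, and less so in KO cells. Whether it depends on the strand was not tested. On the plus strand naive minus primed was -3.16 points for WT and -4.32 points for KO cells. On the minus strand it was -25.6 points in WT but -6.78 points in KO cells, where KO primed started 17.1 points lower than WT primed, with 13 to 22 reads per cytosine. Weighted by reads, the plus strand dominates any mean of the locus, so the 4 comparisons below are given with and without this block.

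From 41002168 on, the locus was highly methylated in the primed libraries. The 3 cytosines covered in all libraries at 41002168 to 41002213 were at 100% in both primed libraries, and at 60.2% ± 7.83 in WT naive and 54.6% ± 20.9 in KO naive. In the block from 41027856 to 41028117, 5 cytosines had means of 97.1% ± 6.39 in WT primed, 90.6% ± 11.2 in KO primed, 85.8% ± 14.8 in WT naive and 71.5% ± 21.3 in KO naive. Naive minus primed was -11.4 points for WT and -19.02 points for KO cells in this block. The 3 cytosines from 41032357 to 41032397 had 93.7% ± 0.392 in WT primed and 97.4% ± 4.44 in KO primed, against 36.5% ± 17.6 in WT naive and 72.5% ± 17.2 in KO naive. The WT naive level there rests on 6 or 7 reads per cytosine, and no cytosine of this group passed the test between the naive libraries. The last block, from 41041279 to 41041414, had 5 cytosines at 95% ± 11.2 in WT primed, 89.2% ± 12.9 in KO primed, 62.7% ± 26.8 in WT naive and 62.8% ± 8.54 in KO naive. Both genotypes reached nearly the same naive mean in it, with a wider spread over cytosines in WT.

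**Figure D4:**
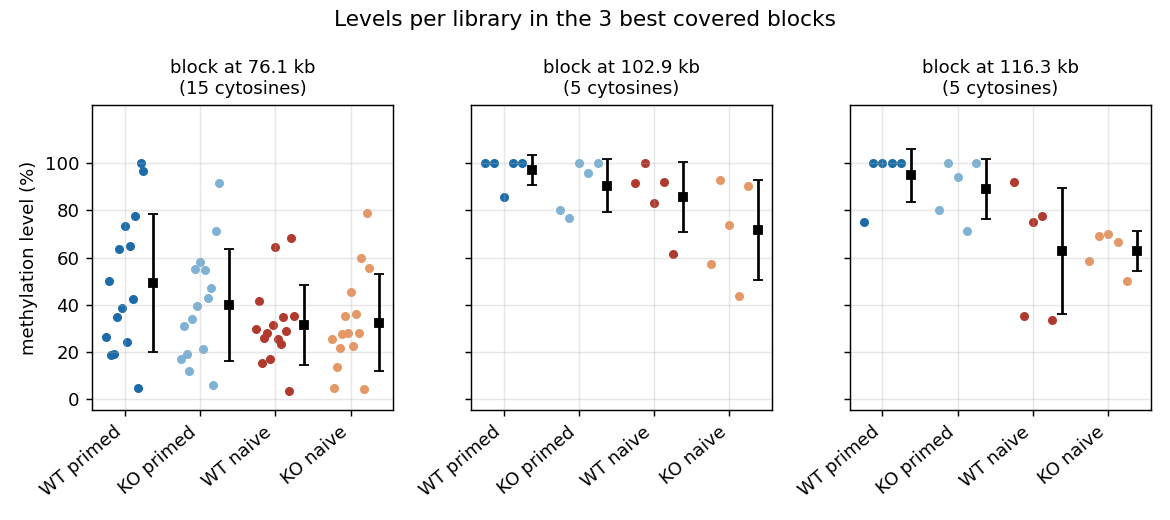
Methylation level in percent of each cytosine (points) with the mean and SD over cytosines (squares and bars) in the 3 blocks with at least 5 cytosines covered in all libraries, named by their distance in kb from the start of the window. Both naive libraries have lower means than the primed library of their genotype in each block, least so in WT at 102.9 kb and in KO at 76.1 kb.

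The first comparison was between the naive and primed state of WT cells, over 44 cytosines with at least 5 reads in both. The mean level was 70.8% ± 31.2 in WT primed and 51.004% ± 24.6 in WT naive, 19.8 points lower, and the naive level was the lower one at 34 of 44 cytosines, against 75.0% of all cytosines of the genome; it was the higher one at 9, against 18.4%. By at least 25 points, 17 were lower (43.8% over all cytosines) and 1 was higher (4.47%). Without the deepest block the difference was -20.9 points over 29 cytosines, and over the whole genome the mean difference was -21.7 points. Two-sided Fisher's exact tests with Benjamini-Hochberg adjustment over all 1060740 cytosines, called at an adjusted p under 0.05 and at least 25 points, called 7 of the 44 lower (15.9%) against a percent called of 14.6, and 0 higher against 0.477. At an unadjusted p under 0.05, 13 were lower (29.5%, against 27.1% over all cytosines) and 0 higher (against 1.49%). These tests compare the reads of 2 libraries, not the conditions. The share of lower calls rests on the deepest block: without it 2 of 29 were called lower (6.90%), and with the strands of each CpG merged 3 of 37 (8.11%, against 16.003% over all merged CpGs).

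The largest drop called lay at 41032357, where 14 of 15 reads were methylated in WT primed (93.3%, Wilson 95% interval 70.2 to 98.8%) and 1 of 6 in WT naive (16.7%, 3.01 to 56.4%; adjusted p = 0.0174, Fisher's exact test). The same cytosine had 12 of 12 reads methylated in KO primed and 7 of 11 in KO naive. At 41041337 the reads were 12 of 12 in WT primed and 6 of 17 in WT naive (35.3%, 17.3 to 58.7%; adjusted p = 0.00629, Fisher's exact test), beside 19 of 19 in KO primed and 9 of 13 in KO naive. The other 5 calls were all on the minus strand of the deepest block and are subject to the strand difference above. Among them 41001267 went from 32 of 33 to 6 of 17 methylated reads (adjusted p = 0.000186, Fisher's exact test), 41001222 from 28 of 36 to 8 of 28, and 41001131 from 14 of 22 to 5 of 30. With read counts divided by the excess variance between strands, 4.38 in WT primed and 3.45 in WT naive, 0 calls were left, against 0.0815% over all cytosines.

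The same comparison in KO cells covered 62 cytosines. The mean level was 68.3% ± 34.5 in KO primed and 51.5% ± 27.1 in KO naive, -16.75 points, and the naive level was lower at 47 of 62 cytosines, against 81.5% of all cytosines, and higher at 13, against 14.8%. By at least 25 points, 24 were lower (43.3% over all cytosines) and 0 higher (2.6%). Without the deepest block the difference was -19.7 points over 47 cytosines, beside a genome mean of -22.1 points. By the same Fisher's exact test 4 cytosines were called lower (6.45%) against a percent called of 14.3, and 0 higher against 0.216. At an unadjusted p under 0.05, 15 were lower (24.2%, against 27.7% over all cytosines) and 1 higher (1.61%, against 0.809%). Whether this share differs from that of WT cells was not tested.

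These 4 cytosines lay in 3 blocks. At 41002168, 10 of 10 reads were methylated in KO primed and 7 of 23 in KO naive (30.4%, Wilson 95% interval 15.6 to 50.9%; adjusted p = 0.00513, Fisher's exact test), where WT had 8 of 8 and 22 of 32. At 41027961 the reads went from 23 of 24 (95.8%, 79.8 to 99.3%) to 10 of 23 (43.5%, 25.6 to 63.2%; adjusted p = 0.0021, Fisher's exact test), where WT had 8 of 8 and 12 of 13. Neighbouring cytosines at 40972735 and 40972799 went from 33 of 37 to 17 of 32 and from 28 of 28 to 19 of 29 methylated reads. In WT cells these had 18 of 21 and 17 of 21 in primed, and 20 of 39 and 14 of 19 in naive. At 40972735 the difference was of like size in both genotypes, -36.1 points in KO cells and -34.4 points in WT cells, where it did not pass Fisher's exact test (adjusted p = 0.0645). With scaled reads 0 calls were left, against 0.0809% over all cytosines.

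Both genotypes together gave a naive-minus-primed difference of -19.4 points ± 1.21 (SD, n = 2 pairs) over the 43 cytosines, lower in 2 of 2 pairs. A two-sided exact permutation of the states inside each pair gave p = 0.5, the smallest p that 2 pairs allow. The autosomal difference over cytosines of the same coverage was -22.6 points for WT and -22.4 points for KO cells.

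Knockout and wild-type cells were next compared in the primed state, where the medium was the same. Over 49 cytosines the mean level was 73.5% ± 30.7 in WT and 72.8% ± 31.0 in KO cells, a KO-minus-WT difference of -0.703 points. KO was lower at 22, higher at 18 and equal at 9, against 38.9% lower and 40.8% higher over all cytosines. This difference was far smaller than the SD of 15.1 points over the differences of single cytosines. Its direction turned without the deepest block, to 2.9985 points higher in KO over 34 cytosines. By at least 25 points, 3 were lower (8.66% over all cytosines) and 2 higher (10.4%). Fisher's exact test with Benjamini-Hochberg adjustment over 1160708 cytosines called 0 lower and 0 higher, against a percent called of 0.0972 and 0.199; at an unadjusted p under 0.05 3 of 49 were lower and 3 higher (6.12% each), against 3.28% and 4.52% over all cytosines. The smallest adjusted p in the locus was 0.309, at 41001237. Upstream of the deepest block, 40928380 had 10 of 10 methylated reads in KO and 7 of 12 in WT primed (adjusted p = 0.594, Fisher's exact test).

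The naive comparison set KO cells in 2iLAF against WT cells in 5iLAF over 60 cytosines. The mean level was 47.3% ± 26.8 in WT and 48.7% ± 27.0 in KO cells, 1.42 points higher in KO with an SD of 23.1 points over single differences, and KO was lower at 31 and higher at 29 cytosines, against 49.3% and 47.6% over all cytosines. Without the deepest block it was 1.61 points higher in KO over 45 cytosines. Called by Fisher's exact test over 1308302 cytosines were 0 lower and 0 higher, against a percent called of 0.188 and 0.261; at an unadjusted p under 0.05 3 of 60 were lower (5.0%) and 1 higher (1.67%), against 4.95% and 5.87% over all cytosines. By size alone, 7 were lower and 8 higher by at least 25 points (11.7% and 13.3%), against 13.8 and 14.7% over all cytosines. At 41001091 the reads were 10 of 24 in WT and 1 of 23 in KO naive, and the adjusted p of 0.182 was the smallest of the locus. The median depth was 14 reads in WT and 23 in KO naive, and 24 of the 60 cytosines had at most 20 reads in both, so differences within the intervals of single cytosines were not detectable at this depth.

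For scale, the locus was set beside 11620 autosomal windows of 120 kb with at least 22 such cytosines. Its mean level was above that of 11.997% of the windows in WT primed, 9.21% in KO primed, 20.5% in WT naive and 19.6% in KO naive. These ranks include the deepest block, without which the locus lay above the autosomal mean in every library. The KO-minus-WT difference of the locus, -0.745 points for the primed libraries and 0.965 points for the naive ones over 43 cytosines, lay inside the central range of the windows from the 5th to the 95th percentile, which was -5.10 to 7.15 and -7.17 to 9.68 points. Nearest to the locus over the 4 library means was the window on chromosome 1, 40440001 to 40560000, with 71.1% and 71.03% in the WT and KO primed libraries and 49.6% and 51.4% in the WT and KO naive ones (Euclidean distance 1.55 points). Next were chromosome 14, 21360001 to 21480000 (1.69 points) and chromosome 7, 7680001 to 7800000 (1.86 points). This likeness is a description over 4 libraries.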

How the data were processed

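Captured genomic DNA of 4 H9 libraries was bisulfite sequenced, with a conversion of 99% from spiked-in phage DNA per the labels' protocols. Per the submitters' processing notes, positions are those of hg19. No source used here names the aligner, the caller or the treatment of duplicates. For each library the authors deposited a table with total, context and methylated coverage as raw read counts per cytosine and strand, and a methylation level as a fraction, per the file headers; on every row used it equalled methylated over context coverage. No row had 0 methylated reads.

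Cytosines were keyed by position and strand, rows outside the autosomes and chromosome X were left out, and levels were computed from the counts at 5 or more context reads in each library compared, with equal weight per cytosine. Fisher's exact test, two-sided, was run on the reads of each cytosine, with Benjamini-Hochberg adjustment (Python 3.11.15, scipy 1.17.1). On simulated reads at the real depths, 20000 cytosines were lowered by 50 points and 20000 by 30 points, out of 1060740 to 1385393. Of these, 9.35 to 14.9% and 1.275 to 1.92% were called, so a missing call says little. In the naive-primed comparisons more cytosines differed, with 43.8% (WT) and 43.3% (KO) lower by at least 25 points. The adjustment is less strict there, so the simulated rates may understate detection in these comparisons. Named were, per comparison, up to 5 called cytosines in each direction with the largest difference, every block with at least 5 cytosines covered in all libraries, and the 3 nearest windows of 120 kb; other cytosines were named after their values were seen. The window, blocks and lists were chosen with earlier results of these data known. The planned list of other glycosphingolipid genes needed an hg19 annotation and was not used. Alternatives were coverage minimums of 10 and 20 reads, merged strands, the minus strand alone, at most 100 reads on average, filling in, read weighting, other sets of cytosines, 50 points, scaled reads and block gaps of 1000 bp.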

Additional observations from a re-analysis of the deposited data

Results flagged for a closer look

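The results below had opposite directions in the compared groups, with 1 library each; these differences of direction were not tested. KO minus WT over the 43 cytosines of the locus was -0.745 points when primed and 0.965 points when naive. Both were of one sign when weighted by reads, -1.77 and -3.91 points, and without the deepest block, 3.73 and 1.02 points. In the deepest block, 41001090 to 41001267, it was -9.09 points when primed and 0.858 points when naive. Here too the opposite directions were not found weighted by reads (-5.65 and -2.12 points), with gaps of 1000 bp (-7.58 and -0.226 points) or on the plus strand of 7 CpGs (-1.60 and -2.75 points). In the block from 41041279 to 41041414 it was -5.83 points when primed and 0.104 points when naive, and at 10 reads -0.185 and -1.68 points.

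Single cytosines on the minus strand also had opposite directions, but they were taken from the calls above. Those at 41001222, 41001131 and 41001267 had been called lower in WT cells, and that at 40972799 in KO cells. Such a call selects a high primed and a low naive level in that genotype. This choice favours opposite directions of KO minus WT, so they add no support to those of the locus or the blocks. At 41001222 the naive-minus-primed difference was -49.2 points for WT and 12.9 points for KO cells, and KO minus WT was -30.7 points when primed and 31.4 points when naive. KO minus WT was -8.64 and 18.5 points at 41001131, and -5.30 and 20.3 points at 41001267, in the primed and naive state. At 40972799 it was 19.05 points when primed and -8.17 points when naive. None of these KO-minus-WT differences passed Fisher's exact test after adjustment.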

How the results depend on the processing

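The naive libraries had the lower locus mean under every alternative run, while the sign of the small KO-minus-WT differences did not hold. WT naive minus WT primed moved from -19.8 points to -22.9 points with the minus strand alone or at most 100 reads on average (both leave the same 37 cytosines), to -6.60 points weighted by reads and to -26.3 points over each library's own cytosines. KO naive minus KO primed moved from -16.75 points to -10.3 points at 20 reads, -7.56 points weighted by reads, -12.4 points over own cytosines and -19.7 points without the deepest block, which was added after seeing the data. KO minus WT primed went from -0.703 points to 0.711 points at 10 reads, 1.45 points with merged strands and 2.9985 points without the deepest block, and to -8.98 points over own cytosines. KO minus WT naive went from 1.42 points to -1.02 points at 10 reads, -1.08 points at 20 reads and -4.16 points weighted by reads, and to 4.93 points over own cytosines.

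The 7 lower calls of WT cells (7 of 44, 15.9%) became 4 of 12 at 20 reads (33.3%, against 32.8% over all cytosines), 3 of 37 with merged strands (8.11%, against 16.003%), 3 of 44 at 50 points (6.82%, against 10.99%), 0 with scaled reads (against 0.0815%) and 2 of 29 without the deepest block (6.90%, against 14.6%). The 4 of KO cells became 2 of 62 at 50 points (3.23%, against 8.85%) and 0 with scaled reads (against 0.0809%). The share of Total coverage of KO naive, relative to the mean of the libraries, moved from 0.932 to 0.904 over rows with at least 5 reads. The deepest block, in the order WT primed, KO primed, WT naive, KO naive, had 57.5%, 49.9%, 36.2% and 36.01% with gaps of 1000 bp, which add the next 3 cytosines, and 34.2%, 28.6%, 26.4% and 24.3% weighted by reads. Other causes were not tested. At 10 reads the block from 41027856 had no cytosine left.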
